A study of Mus musculus with 6 samples.

Results

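This account describes 10 mouse genes that code for phosphatases of the kinase ERK and for products of the feedback that ERK signaling switches on: Ptprr, Dusp4, Dusp5, Dusp6, Spry1, Spry2, Spry4, Etv4, Etv5 and Phlda1. They were chosen by name, with earlier results of these data known, and make up 10 of the 23420 gene symbols in the count table. The shares of all tested genes given beside them are therefore descriptions and not tests of an independently chosen set. Total RNA of eEnd2 cells, a mouse embryonic endothelial line, was sequenced after removal of ribosomal RNA. In 3 cultures (A, B and C) the cells expressed wildtype human Integrin-β1A fused to GFP (β1-WT-GFP), and in 3 cultures (A, B and C) they expressed the same chimera with a cytoplasmic lysine replaced by glutamine, which mimics an acetylated lysine (β1-K794Q-GFP). Summed over all symbols, the β1-WT-GFP libraries held 10918600, 9589826 and 15287191 counts and the β1-K794Q-GFP libraries 10203916, 11197729 and 11071680; here and throughout, the 3 values of a group stand in the order A, B, C, and the groups are shortened to β1-WT and β1-K794Q.
Both groups share the parental line, the GFP in the extracellular part of the integrin, a short human β-actin promoter with a matrix attachment region of chicken lysozyme, confluent growth in dishes of 10 cm and medium with 10% fetal calf serum. The mouse Integrin-β1 gene is not described as removed, so that the chimera is present in addition to it. The cells were stably transfected populations sorted by fluorescence into GFPlow and GFPhigh, not single clones, and the labels do not say which of these populations each culture came from. The CO2 level of the incubator differs between the labels and the methods. The study calls its RNA samples biological ones, and how the cultures were separated from each other is not given in the sources used here, so that the p values measure the spread between these cultures only.
Growth factor receptors and integrins activate the small GTPase Ras, which passes the signal through Raf and MEK to ERK, and ERK enters the nucleus and switches on immediate early genes. Some of the genes switched on in this way limit the signal: dual-specificity phosphatases remove the activating phosphates from ERK, and Sprouty proteins act upstream, between the receptor and Raf. The ETS factors Etv4 and Etv5 carry the response further, and in endothelial cells the same cascade acts downstream of the receptors for VEGF and FGF. Transcripts of this kind are therefore often read as the output of the pathway; phosphorylated ERK itself was not measured in these libraries. The comparison asks whether these transcripts differ between cells with the wildtype and with the acetylation-mimetic integrin.

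Levels are given as normalized counts (CPM, counts scaled to the TMM-adjusted size of the library), and differences as the log2 fold change of β1-K794Q over β1-WT cells with its standard error (SE) and its p from edgeR's quasi-likelihood test, adjusted over all tested genes unless called unadjusted. The endothelial identity of the cultures was checked first. All 11 endothelial markers were detected and tested, and their summed level was 7790, 8890 and 8490 CPM in the β1-WT cultures and 6540, 12200 and 7560 CPM in the β1-K794Q cultures. Pecam1 had at least 1780 CPM in every culture. Flt1 was lowest in β1-K794Q culture B, with 232, 241 and 350 CPM in the β1-WT cultures and 141, 31.2 and 457 CPM in the β1-K794Q cultures. The junctional marker Cldn5 had 267, 252 and 4.73 CPM in the β1-WT cultures and 17.5, 0 and 24.2 CPM in the β1-K794Q cultures, so that the groups overlapped, and Vwf was at or below 2.4 CPM in every culture. Of 9 mesenchymal markers 1 passed the filter on low counts. Their summed level was 30.7 CPM in β1-WT culture C and at most 3.75 CPM in the others, Pdgfra was the most abundant (16.4 CPM in β1-WT culture C), and Dcn and Lum were at 0 in every culture. The 4 epithelial markers summed to at most 0.591 CPM, with Krt8 the most abundant and Epcam and Krt18 at 0. Of the 4 leukocyte markers in the table, Cd68 took nearly all of the signal (31.0 to 103 CPM), Cd3e was at 0, and the pan-leukocyte marker Ptprc had at most 0.278 CPM.

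Cultures of the same group differed to unequal degrees. Of the 11608 tested genes, 0.56% lay at least 2-fold apart between cultures A and B of β1-WT cells, and this held for 0 of the 10 genes described here. Between β1-WT culture C and cultures A and B the shares were 23.3% and 21.9%, with 4 of the 10 genes in each case. Among the β1-K794Q cultures, A and C were 2-fold apart in 7.78% of genes, A and B in 17.2%, and B and C in 22.1%, with 1, 4 and 7 of the 10 genes. β1-WT culture C and β1-K794Q culture B thus stood apart within their groups, and the log2 fold changes of the 10 genes are also given without them. The fit without both cultures was chosen after the data were seen.

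All 10 genes passed the filter on low counts. At the study's thresholds (2-fold or more, and p not above 0.05 before adjustment), 2 of the 10 differed between the groups, where 603 genes, 5.19% of all tested, did so. Ptprr was the 1 that passed both thresholds and was higher in β1-K794Q cells, as 3.48% of tested genes did. Dusp4 was the 1 that passed them and was lower, as 1.71% of tested genes did. After Benjamini-Hochberg adjustment over all tested genes 0 of the 10 had an adjusted p of at most 0.05 in edgeR's test (0.181% of tested genes had). DESeq2 gave 1, Dusp4 (adjusted p = 0.0129), among 489 of the 15974 genes it fitted, and no p for Ptprr and Etv4. In edgeR's likelihood ratio test it was 1, Ptprr (adjusted p = 0.0278), among 318 of 11608 genes. In the main test 2 of the 10 had an unadjusted p of at most 0.05, as 10.2% of tested genes had. The log2 fold change was positive in 8 and negative in 2, and positive in 48.4% of tested genes. The median log2 fold change of the 10 was 0.44, beside -0.02 over all tested genes. It was 0.86 without β1-WT culture C, 0.2 without β1-K794Q culture B and 0.79 without both. The 3 cultures of one group lay wholly on one side of the 3 of the other in 2 of the 10 genes, again Ptprr and Dusp4, and in 16.6% of tested genes. In RNA from whole cultures, fewer cells that express a gene and less of its RNA in each cell cannot be told apart.
Single cultures set many of the other values. In 4 of the 10 genes, Dusp5, Spry4, Etv4 and Phlda1, β1-WT culture C was at least 2-fold above both other β1-WT cultures, as in 10.8% of tested genes. In 3 of the 10, Ptprr, Dusp5 and Phlda1, β1-K794Q culture B was at least 2-fold above both other β1-K794Q cultures, as in 5.19% of tested genes, here again 603. Without β1-WT culture C, Spry4 and Phlda1 passed both thresholds in place of Ptprr and Dusp4, with 8.38% of tested genes past them. Without β1-K794Q culture B it was Ptprr and Spry1, with 7.95% of tested genes past them. Without both, the 4 genes Ptprr, Spry1, Spry4 and Phlda1 passed them, all higher in β1-K794Q cells, against 14.2% of tested genes. Of the 11721 genes tested in that fit, 1179 passed them and were higher. In the same fit 1796 genes, and 2 of the 10, had an adjusted p of at most 0.05 in edgeR's test.

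**Figure D1:**
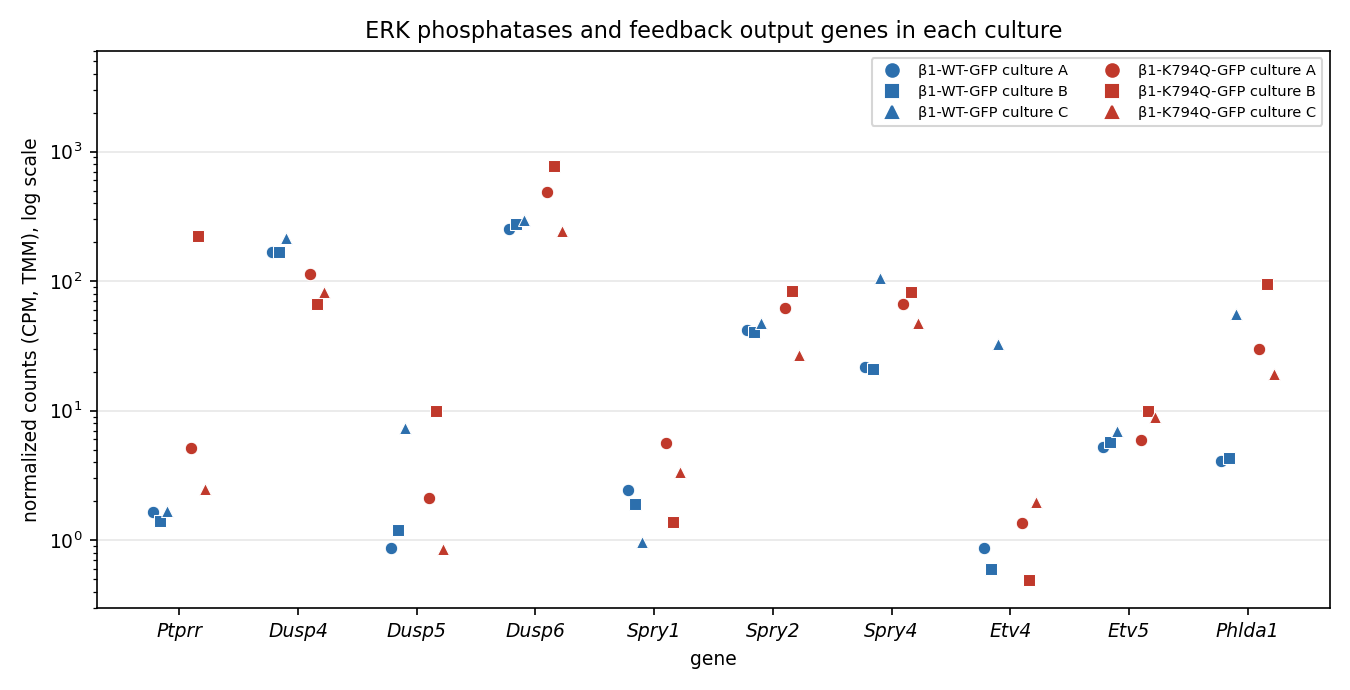
Normalized counts (CPM, log scale) of the 10 genes in each of the 3 β1-WT (blue) and 3 β1-K794Q cultures (red), with circles for culture A, squares for B and triangles for C. The groups are separate in Ptprr and Dusp4, and β1-WT culture C lies far above cultures A and B in Dusp5, Spry4, Etv4 and Phlda1.

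Ptprr is a receptor-type tyrosine phosphatase that binds ERK through a kinase interaction motif and removes the phosphate from its tyrosine. It lies on chromosome 10 of GRCm38 from 116018213 to 116274932, on the plus strand. RefSeq lists 4 transcription starts for it, and the table counts reads per gene, so that the starts are not distinguished. Promoter windows of 300 bases around each RefSeq start (GRCm38.p6) were matched for 6 of the 10 genes. The set of windows used here held no entry for Dusp4, Spry4, Etv4 and Phlda1. The matched windows were searched on both strands for the ETS letters CCGGAA, the AP-1 letters TGANTCA and the CArG box, the element bound by serum response factor. Among all 32851 windows of this length, 14.9% held the ETS letters, 7.81% the AP-1 letters and 1.63% a CArG box. A match describes the letters and does not show that a factor binds there. The most upstream and the most downstream Ptprr windows are shown because the reads cannot be assigned to one of them, with motif matches in capitals. The first, at chr10:116018113-116018412 on the plus strand, held 0 matches, and the last, at chr10:116177101-116177400 on the plus strand and inside the annotated gene, held 1 CArG box.
Ptprr, first start: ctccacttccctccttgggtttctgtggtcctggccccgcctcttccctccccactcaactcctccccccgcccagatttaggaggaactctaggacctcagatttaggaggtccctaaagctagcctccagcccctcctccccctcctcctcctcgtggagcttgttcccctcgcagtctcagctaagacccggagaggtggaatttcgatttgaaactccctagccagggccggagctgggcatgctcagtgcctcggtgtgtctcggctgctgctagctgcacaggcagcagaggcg
Ptprr, last start: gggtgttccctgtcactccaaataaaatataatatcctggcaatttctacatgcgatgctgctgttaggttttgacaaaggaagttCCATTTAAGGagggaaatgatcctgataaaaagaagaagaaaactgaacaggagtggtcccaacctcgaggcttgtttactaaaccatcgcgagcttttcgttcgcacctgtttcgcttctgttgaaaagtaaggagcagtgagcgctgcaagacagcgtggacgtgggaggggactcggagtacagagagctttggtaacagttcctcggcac

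Ptprr had 1.66, 1.40 and 1.67 CPM in the β1-WT cultures and 5.10, 222 and 2.49 CPM in the β1-K794Q cultures. Its transcript was thus barely present in all β1-WT cultures and in β1-K794Q culture C, a little higher in culture A, and abundant in culture B alone. The groups did not overlap (p = 0.1 in a two-sided exact permutation test, the lowest value that groups of 3 can give). In raw reads these values are 19, 14 and 24 counts in β1-WT cells and 53, 2253 and 29 counts in β1-K794Q cells. The log2 fold change was 5.59 (SE 1.85, adjusted p = 0.357, edgeR), and its size was set by culture B, which was 43.6-fold above the next highest culture. Without that culture the log2 fold change was 1.26 (unadjusted p = 0.0355, edgeR) and still past both thresholds. Without both cultures it was 1.31. It was 5.62, 5.51 and 5.64 without β1-WT culture A, B or C in turn, and none of these 3 fits kept it past the threshold for p (unadjusted p = 0.0647, 0.0644 and 0.0676, edgeR). With the culture letter as a block it was 2.84, also not past that threshold (unadjusted p = 0.147, edgeR).
Ptprr's pattern over the 6 cultures was most like that of Peg13, a noncoding imprinted transcript, with a root mean square difference of 0.27 between centered log2 values. Peg13 had 277 CPM in β1-K794Q culture B and at most 3.65 CPM elsewhere. Celf4 (0.69) and Cmah (0.73) were the next most like.

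Dusp4, a nuclear phosphatase that is induced by ERK and acts on ERK and other MAP kinases, had 167, 168 and 214 CPM in the β1-WT cultures and 113, 66.8 and 82.6 CPM in the β1-K794Q cultures. All 3 β1-K794Q cultures lay below all 3 β1-WT cultures (p = 0.1 in the two-sided exact permutation test, again the lowest it can give), with the lowest value in β1-K794Q culture B and the highest in β1-WT culture C. The group means were 87.6 ± 23.7 and 183 ± 27.0 CPM (SD, n = 3 each), 2.09-fold higher in β1-WT cells. The fitted log2 fold change was -1.06 (SE 0.25, adjusted p = 0.19, edgeR). It remained negative but fell short of the fold threshold without β1-WT culture C (-0.92), without β1-K794Q culture B (-0.90) and without both (-0.76). Dusp4 lies on chromosome 8 from 34807297 to 34819894, and the nearest tested genes on either side, Tmem66 and Tnks, had log2 fold changes of 0.12 and 0.00. The genes most like it in pattern were Iah1 (root mean square difference 0.16), Dennd4a (0.16) and Scly (0.17).

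Dusp5 codes for a nuclear phosphatase that acts on ERK alone among the MAP kinases. It lies on chromosome 19 from 53529109 to 53542431. Its promoter window, chr19:53528895-53529194 on the plus strand, is shown because it held 2 CArG boxes side by side (capitals), starting 82 and 72 bases before the start, and 0 ETS or AP-1 matches.
Dusp5: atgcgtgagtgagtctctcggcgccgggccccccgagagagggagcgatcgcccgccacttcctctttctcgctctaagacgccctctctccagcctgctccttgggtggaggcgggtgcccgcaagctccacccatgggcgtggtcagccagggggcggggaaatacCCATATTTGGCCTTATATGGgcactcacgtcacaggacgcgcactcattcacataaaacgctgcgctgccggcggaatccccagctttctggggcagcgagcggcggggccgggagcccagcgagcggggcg
Dusp5 had 0.874, 1.20 and 7.37 CPM in the β1-WT cultures and 2.12, 9.86 and 0.859 CPM in the β1-K794Q cultures. It was low in 4 cultures and higher in β1-WT culture C and β1-K794Q culture B, so that the groups overlapped. Over all cultures its log2 fold change was 0.42 (SE 1.14, adjusted p = 0.951, edgeR). It was 2.04 without β1-WT culture C, -1.11 without β1-K794Q culture B, -0.02 without β1-WT culture A and 0.53 without both outlying cultures, and none of these passed both thresholds. Ndrg4 (root mean square difference 0.30), the gap junction gene Gja1 (0.32) and Phgdh (0.33) were most like it.

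Dusp6 is the cytoplasmic counterpart of Dusp5, again selective for ERK, and its transcript is a widely used readout of FGF signaling. It lies on chromosome 10 from 99263231 to 99267489. Its promoter window, chr10:99262981-99263280 on the plus strand, held 0 matches to the 3 motifs and is shown beside that of Spry2 further on, because the 2 genes had the most similar patterns of any pair among the 10 (root mean square difference 0.25).
Dusp6: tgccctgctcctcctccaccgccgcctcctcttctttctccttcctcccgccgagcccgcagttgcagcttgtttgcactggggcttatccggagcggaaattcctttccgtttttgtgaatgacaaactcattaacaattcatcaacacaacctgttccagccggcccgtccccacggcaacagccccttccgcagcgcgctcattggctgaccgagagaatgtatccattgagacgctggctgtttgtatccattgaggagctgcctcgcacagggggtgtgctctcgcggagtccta
Dusp6 had 251, 276 and 294 CPM in the β1-WT cultures and 488, 767 and 244 CPM in the β1-K794Q cultures. Cultures A and B of the β1-K794Q cells were above all β1-WT cultures, while culture C was the lowest of all 6, so that the groups overlapped. Its means were 500 ± 262 CPM in β1-K794Q cells and 274 ± 21.9 CPM in β1-WT cells (SD, n = 3 each). This gave a log2 fold change of 0.87 (SE 0.41, adjusted p = 0.569, edgeR), within the spread of the β1-K794Q cultures, and it was 0.93, 0.42 and 0.49 without β1-WT culture C, without β1-K794Q culture B and without both. Leaving out β1-K794Q culture C, the low one, gave 1.20 and took it past both thresholds (unadjusted p = 0.00673, edgeR). Slc30a4 (0.16), Slc20a1 (0.16) and Rapgef1 (0.17) were most like it in pattern.

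The Sprouty genes follow. Spry2, an inhibitor of receptor tyrosine kinase signaling to Ras, lies on chromosome 14 from 105891947 to 105896819 on the minus strand. Its promoter window, chr14:105896770-105897069 on the minus strand, held 1 match to the ETS letters (capitals), after the start, and 0 AP-1 or CArG matches.
Spry2: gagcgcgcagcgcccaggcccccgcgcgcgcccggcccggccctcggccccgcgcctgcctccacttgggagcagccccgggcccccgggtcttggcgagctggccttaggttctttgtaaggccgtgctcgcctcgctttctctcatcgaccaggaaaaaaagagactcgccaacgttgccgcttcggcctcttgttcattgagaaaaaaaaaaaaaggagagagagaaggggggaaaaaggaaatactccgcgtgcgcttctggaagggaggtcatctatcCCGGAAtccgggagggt
Spry2 had 42.2, 40.2 and 47.6 CPM in the β1-WT cultures and 62.3, 84.2 and 26.7 CPM in the β1-K794Q cultures. As in Dusp6, the β1-WT cultures were close together, β1-K794Q cultures A and B lay above them, and culture C lay below. The log2 fold change of 0.41 (SE 0.40, adjusted p = 0.827, edgeR) was 0.50, 0.04 and 0.13 without β1-WT culture C, without β1-K794Q culture B and without both. Without β1-K794Q culture C, the low one, it was 0.76 (unadjusted p = 0.0142, edgeR), short of the fold threshold. B4galt5 (0.09), Epb4.1 (0.13) and Upp1 (0.13) were most like it.

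Spry1, the relative named first in the family, was much less abundant. It lies on chromosome 3 from 37639947 to 37644598 and had 2.45, 1.90 and 0.974 CPM in the β1-WT cultures and 5.67, 1.38 and 3.35 CPM in the β1-K794Q cultures. β1-K794Q cultures A and C were the highest, and culture B lay within the range of the β1-WT cultures. The log2 fold change was 0.97 (SE 0.63, adjusted p = 0.709, edgeR). It was 0.69 without β1-WT culture C and 0.43 without β1-K794Q culture A, its lowest value in these fits; it passed both thresholds without β1-K794Q culture B (1.36, unadjusted p = 0.0448, edgeR) and without both (1.06, unadjusted p = 0.0423). With at most 59 counts in a culture, these are differences between small numbers of reads. Slc7a3 (0.18), 2610015P09Rik (0.19) and Map4k1 (0.20) were most like it.

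Spry4, which also restrains signaling upstream of Raf and is a known modulator of the endothelial response to VEGF, had 21.7, 20.9 and 106 CPM in the β1-WT cultures and 67.0, 81.9 and 47.6 CPM in the β1-K794Q cultures. All β1-K794Q cultures were above β1-WT cultures A and B, and β1-WT culture C was above them all. The group means were 65.5 ± 17.2 and 49.3 ± 48.6 CPM (SD, n = 3 each). In the fit of all cultures the log2 fold change was 0.41 (SE 0.67, adjusted p = 0.911, edgeR). Without β1-WT culture C it was 1.63 (SE 0.27, adjusted p = 0.098, edgeR) and passed both thresholds, without β1-K794Q culture B it was 0.21, and without both it was 1.44 (adjusted p = 0.0142, edgeR). The summed mesenchymal markers, 30.7 CPM in β1-WT culture C, moved with this and the other values raised in that culture, and their part in them was not tested. The gene lies on chromosome 18 from 38586247 to 38601415. Lgr4 (0.14), Pdlim1 (0.21) and the transferrin receptor gene Tfrc (0.23) were most like it.

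**Figure D2:**
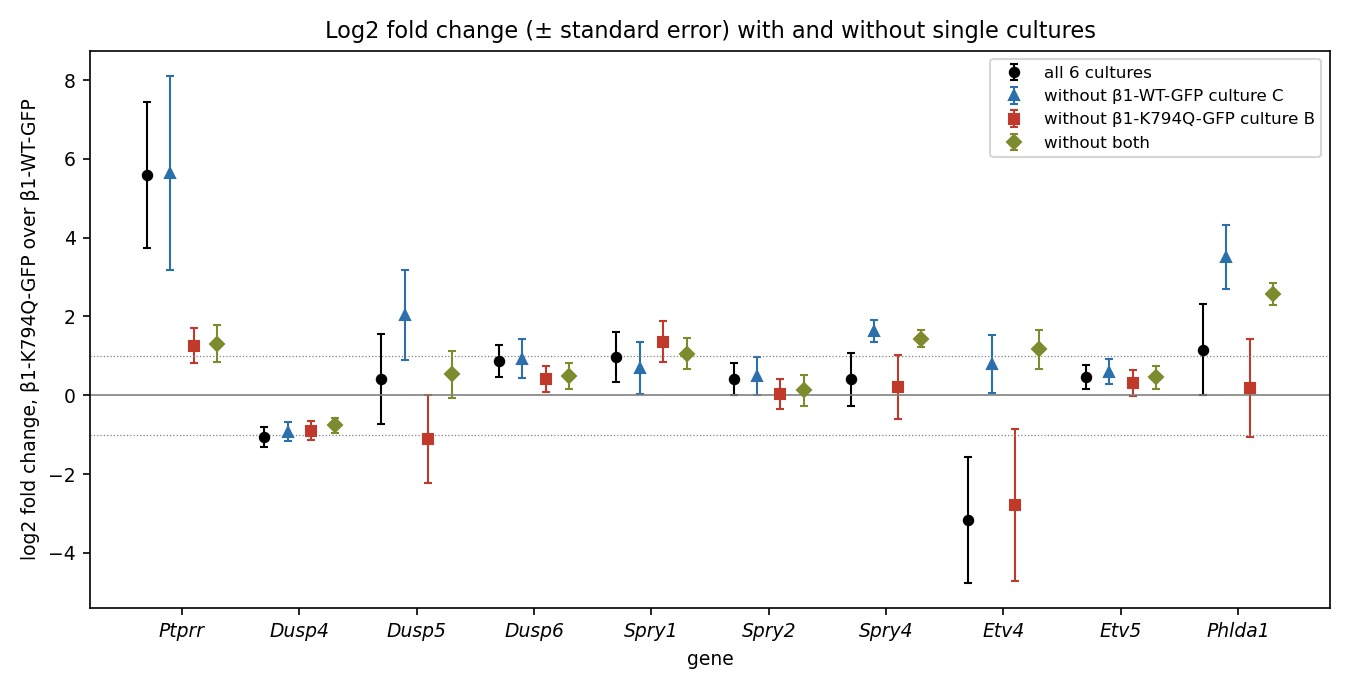
Log2 fold change of β1-K794Q over β1-WT cells with its standard error (bars) for each of the 10 genes, with all 6 cultures (black), without β1-WT culture C (blue), without β1-K794Q culture B (red) and without both (green); dotted lines mark 2-fold. Dusp4 stays between -1.06 and -0.76 in the 4 fits, Etv4 changes sign without β1-WT culture C, and Dusp5 changes sign without β1-K794Q culture B.

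Etv4 and Etv5 code for ETS transcription factors of the PEA3 group, which are switched on by FGF and ERK signaling. Etv4 (chromosome 11, 101769742 to 101785371) had 0.874, 0.599 and 32.8 CPM in the β1-WT cultures and 1.35, 0.493 and 1.98 CPM in the β1-K794Q cultures. It was near the limit of detection in 5 cultures, with 5 to 23 counts, and had 472 counts in β1-WT culture C. The groups overlapped, since β1-K794Q cultures A and C lay above β1-WT cultures A and B. The log2 fold change was -3.16 (SE 1.59, adjusted p = 0.604, edgeR). It was 0.79 without β1-WT culture C, -2.79 without β1-K794Q culture B and 1.17 without both, and none of these passed both thresholds. Without β1-WT culture B it was -3.72 and passed them (unadjusted p = 0.0413, edgeR). Etv4 also passed them with all cultures in edgeR's likelihood ratio test (-3.16, unadjusted p = 0.0325). Pcolce2 (0.43), Sulf1 (0.45) and Sh3bp4 (0.47) were most like it, each with its highest level in β1-WT culture C.
Etv5 (chromosome 16, 22381309 to 22439719) varied little, with 5.24, 5.69 and 6.95 CPM in the β1-WT cultures and 5.96, 9.86 and 8.85 CPM in the β1-K794Q cultures. β1-K794Q cultures B and C were the highest and culture A lay among the β1-WT cultures. The log2 fold change was 0.46 (SE 0.30, adjusted p = 0.714, edgeR), and 0.60, 0.31 and 0.46 without β1-WT culture C, without β1-K794Q culture B and without both. Tmem50b (0.10) and Reep3 (0.11) were among the genes most like it.

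Phlda1, a protein with a pleckstrin homology-like domain whose transcript rises with ERK activity, lies on chromosome 10 from 111506286 to 111508645. It had 4.11, 4.29 and 55.4 CPM in the β1-WT cultures and 29.9, 94.3 and 19.2 CPM in the β1-K794Q cultures. Every β1-K794Q culture was above β1-WT cultures A and B, but β1-WT culture C, 13.2-fold above the mean of A and B, exceeded β1-K794Q cultures A and C. The log2 fold change was 1.16 (SE 1.16, adjusted p = 0.835, edgeR). It was 3.51 without β1-WT culture C (adjusted p = 0.147, edgeR) and 2.56 without both cultures (adjusted p = 0.00796, edgeR), past both thresholds each time. Without β1-K794Q culture B it was 0.19. An adjusted p of at most 0.05 was reached by 1796 of 11721 genes in the fit without both. Nes, the intermediate filament gene nestin (0.34), Dock5 (0.39) and Disp1 (0.39) were most like Phlda1.

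Levels of different genes were compared per length, as CPM per kilobase of annotated exons. In β1-WT cells the order of the means was Dusp6 (87.3 ± 6.99), Dusp4 (66.8 ± 9.84), Spry2 (20.8 ± 1.84), Spry4 (10.4 ± 10.2), Phlda1 (9.65 ± 13.4), Etv4 (3.68 ± 5.97), Etv5 (1.45 ± 0.216), Dusp5 (1.27 ± 1.48), Spry1 (0.61 ± 0.256) and Ptprr (0.266 ± 0.026; SD, n = 3 each). The ranges of the cultures did not overlap between Dusp6 and Dusp4, Dusp4 and Spry2, or Spry1 and Ptprr; all other neighbours in this order overlapped. The place of Etv4 rests on culture C, with 10.6 CPM per kilobase against 0.281 and 0.193 in cultures A and B, and so does that of Dusp5 before Spry1, since Dusp5 was below Spry1 in cultures A and B. In β1-K794Q cells the order was Dusp6 (160 ± 83.5), Dusp4 (32.0 ± 8.66), Spry2 (27.7 ± 13.9), Phlda1 (21.7 ± 18.4), Spry4 (13.8 ± 3.62), Ptprr (12.9 ± 21.3), Etv5 (2.00 ± 0.493), Dusp5 (1.73 ± 1.97), Spry1 (1.19 ± 0.74) and Etv4 (0.41 ± 0.24; SD, n = 3 each). Here Dusp6 stood apart from Dusp4, and all other neighbours in the order overlapped. The place of Ptprr in this second order rests on culture B, with 37.5 CPM per kilobase against 0.86 and 0.42 in cultures A and C. So do the places of Phlda1 before Spry4 and of Dusp5 before Spry1. In cultures A and C Phlda1 was below Spry4 and Dusp5 was below Spry1.

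Ptprr, Dusp6 and Phlda1 share chromosome 10, and the median level of the genes around each was above the β1-WT mean in every β1-K794Q culture. The regional level was taken as the median log2 ratio to the β1-WT mean in a window of 25 tested genes centered on the gene, which was itself left out. Around Dusp6 it was 0.84, 0.73 and 0.74 in the β1-K794Q cultures, while Dusp6 itself had 0.83, 1.49 and -0.16. Around Phlda1 it was 1.07, 0.51 and 1.01, while Phlda1 had 0.48, 2.12 and -0.14. Around Ptprr it was 1.12, 0.36 and 1.02, while Ptprr had 1.43, 6.74 and 0.53. In all 3 genes culture B was above its regional level and culture C below it. With the regional level in the offset of the fit, the log2 fold change was 0.09 for Dusp6, 0.48 for Phlda1 and 5.18 for Ptprr (unadjusted p = 0.0369, edgeR, past both thresholds).
The tested genes next to Dusp6, Galnt4 and the Kit ligand gene Kitl, had log2 fold changes of 0.99 and 1.15, and Kitl passed both thresholds. Next to Phlda1 lay the histone chaperone gene Nap1l1 (1.19, past both thresholds) and Krr1 (0.62). Next to Ptprr, the tetraspanin gene Tspan8 had 0.349, 0.699 and 4.17 CPM in the β1-WT cultures and 1.63, 55.1 and 0.601 CPM in the β1-K794Q cultures. Tspan8 was therefore high in the same single culture as Ptprr, and it did not pass both thresholds (log2 fold change 3.42, adjusted p = 0.62, edgeR). On the other side Ptprb, the endothelial receptor phosphatase that acts on Tie receptors, starts 0.591 kb after the end of Ptprr. It had 1360, 1470 and 2130 CPM in the β1-WT cultures and 2510, 2970 and 3030 CPM in the β1-K794Q cultures, with no overlap between the groups and a log2 fold change of 0.78, below 2-fold. The peak of Ptprr in culture B was not shared by Ptprb.

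**Figure D3:**
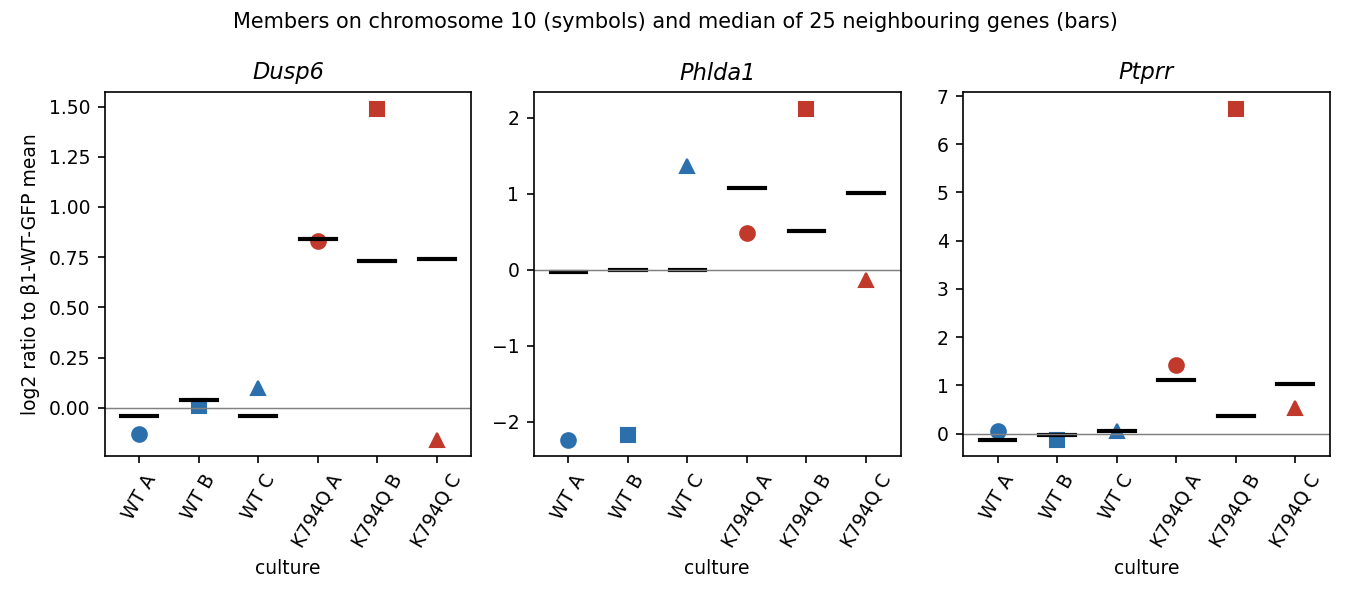
Log2 ratio to the β1-WT mean of Dusp6, Phlda1 and Ptprr in each culture (colored symbols). Black bars are the median of the neighbouring genes in a window of 25 tested genes, the gene itself left out. The vertical scales differ. The bars lie near 0 in β1-WT cultures and above 0 in every β1-K794Q culture, and each gene exceeds its bar most in β1-K794Q culture B.

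The wider pathway was described with 4 further lists, whose counts stand beside the 5.19% of tested genes past both thresholds with all cultures, and the 8.38%, 7.95% and 14.2% without β1-WT culture C, without β1-K794Q culture B and without both. Of 14 other phosphatases that act on MAP kinases, 10 were tested and their median log2 fold change was 0.38. The median was 0.22 without β1-WT culture C, 0.02 without β1-K794Q culture B and 0.06 without both, with 11 tested. With all cultures 1 passed both thresholds. The 1 was Dusp8, a phosphatase that prefers the stress kinases JNK and p38, with 16.2, 15.4 and 20.2 CPM in the β1-WT cultures and 32.2, 66.4 and 18.0 CPM in the β1-K794Q cultures. Dusp8 was highest in β1-K794Q culture B, and culture C lay within the β1-WT range (log2 fold change 1.17, adjusted p = 0.474, edgeR). It was 1.31 without β1-WT culture C, 0.54 without β1-K794Q culture B and 0.69 without both, and when each of the 6 cultures was left out in turn it passed both thresholds in 1 case, without β1-K794Q culture C. Among the 4 not tested, the nuclear phosphatase gene Dusp2 had 10.7, 12.8 and 0.695 CPM in the β1-WT cultures. It had 0.481, 0.296 and 0.429 CPM in the β1-K794Q cultures, so that the groups did not overlap, as in 16.6% of tested genes. Dusp2 had at most 10 counts in β1-WT culture C and in each β1-K794Q culture. DESeq2, which fitted it, gave it the 1 adjusted p of at most 0.05 in this list (0.00166), where 489 genes had such a value. Ptpn5, Ptpn7 and Dusp9 had at most 3.83 CPM. The log2 fold changes of the other 9 tested genes ranged from -0.21 to 1.88. Without β1-WT culture C the genes past both thresholds were Dusp10 and Dusp14, higher, and Dusp2, lower; without β1-K794Q culture B it was Dusp2, and without both the same 3 as in the first case.
Of 14 other inhibitors of the Ras-ERK pathway, 13 were tested and the median was 0.10. It was 0.06 without β1-WT culture C, and turned to -0.18 without β1-K794Q culture B and to -0.16 without both. With all cultures 1 passed both thresholds. Lrig1, a transmembrane protein that promotes the degradation of growth factor receptors, fell, with 103, 109 and 79.6 CPM in the β1-WT cultures and 46.2, 44.8 and 49.2 CPM in the β1-K794Q cultures. The groups did not overlap (log2 fold change -1.06, standard error 0.18, adjusted p = 0.0956, edgeR), and Lrig1 passed both thresholds without β1-WT culture C (-1.17), without β1-K794Q culture B (-1.02) and without both, but not without β1-WT culture B (-0.97) or with the regional offset (-0.93). Its adjusted p was 0.000229 in DESeq2 and 0.00996 in edgeR's likelihood ratio test, where 489 and 318 genes had at most 0.05. The other 12, among them the Spred genes and the Ras GTPase-activating genes Nf1 and Rasa1, did not pass both thresholds, with log2 fold changes from -0.37 to 0.51.
Of the 25 genes in the table for the cascade itself, from Ras to ERK and its substrate kinases, 24 were tested and 0 passed both thresholds in edgeR's test or DESeq2, while 3 had an unadjusted p of at most 0.05 in edgeR's test (10.2% of all tested genes had) and 0 did with the regional offset (976 of 11608 genes in all). Their log2 fold changes ran from -0.56 to 0.95 and their median was 0.06. The median was 0.12 without β1-WT culture C, 0.01 without β1-K794Q culture B and -0.01 without both. Without β1-WT culture C 1 gene passed both thresholds, the Ras relative Rras2. Without β1-K794Q culture B it was the adaptor gene Frs2, and without both it was both of these, each higher.

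**Figure D4:**
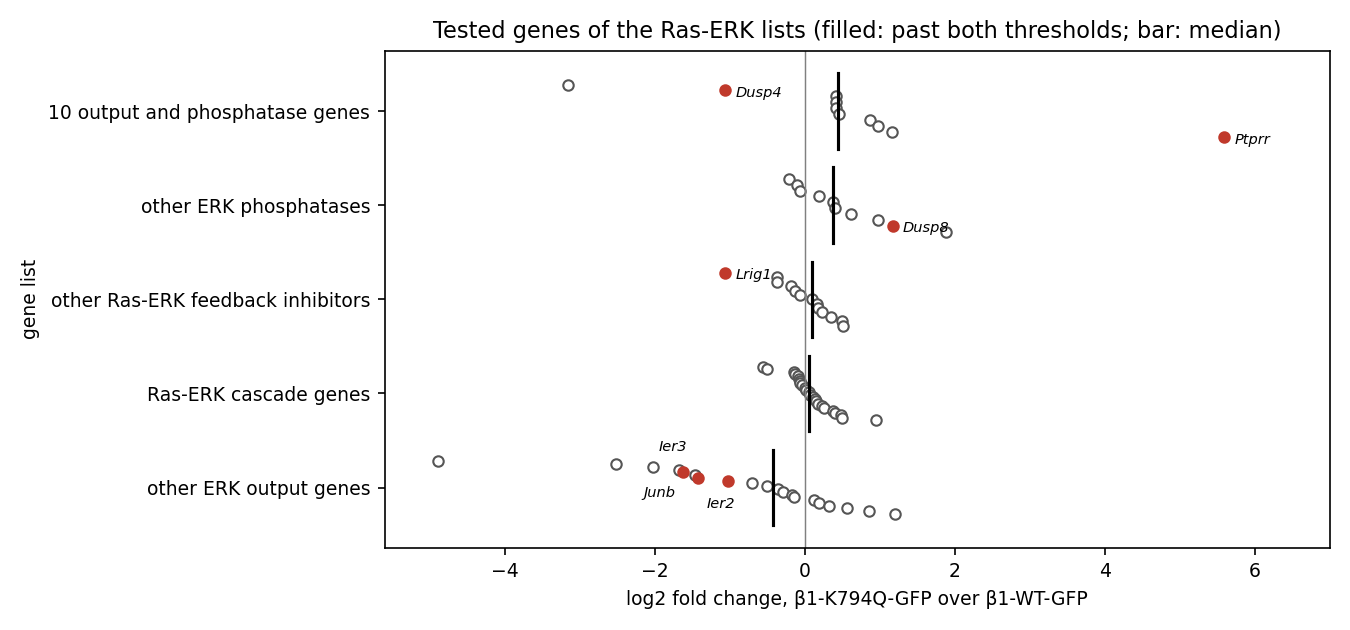
Log2 fold change of β1-K794Q over β1-WT cells for every tested gene of the 10 genes described here and of the 4 further lists, with filled red points for genes past both thresholds and a black bar at each list's median. The medians are 0.44, 0.38, 0.10, 0.06 and -0.43 from top to bottom, beside -0.02 over all tested genes.

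Of 26 other transcripts known as outputs of ERK or as ETS factors it phosphorylates, 20 were tested and 3 passed both thresholds, all lower in β1-K794Q cells (as 1.71% of tested genes were), and the median was -0.43. Ier3, an immediate early gene linked to survival, had 28.2, 35.8 and 72.5 CPM in the β1-WT cultures and 17.9, 13.2 and 13.4 CPM in the β1-K794Q cultures. The AP-1 subunit gene Junb had 54.3, 38.0 and 105 CPM and 20.5, 29.9 and 22.8 CPM in the same order. In Ier2, another immediate early gene, the values were 49.5, 36.9 and 101 CPM and 34.1, 35.0 and 22.8 CPM. In these 3 genes all β1-K794Q cultures lay below all β1-WT cultures, with β1-WT culture C the highest. The log2 fold changes were -1.62 for Ier3, -1.43 for Junb and -1.03 for Ier2, with adjusted p values of 0.207, 0.273 and 0.465 in edgeR's test. Without β1-WT culture C, Ier3 still passed both thresholds (-1.10), while Junb (-0.91) and Ier2 (-0.49) did not; Ier2 was also short of them with the regional offset (-0.80), with the culture letter as a block (-0.91), without β1-WT culture A and without any 1 of the β1-K794Q cultures.
In 12 of the 20 tested genes β1-WT culture C was at least 2-fold above both other β1-WT cultures, against 10.8% of all tested genes. They included Egr1, an immediate early zinc finger factor, with 2.88, 2.50 and 317 CPM in the β1-WT cultures and 2.12, 7.10 and 1.72 CPM in the β1-K794Q cultures. Fos had 0.524, 0.399 and 53.3 CPM and 1.44, 7.10 and 0.945 CPM in the same order. Both genes were thus high in β1-WT culture C, next highest in β1-K794Q culture B, and low in the other 4 cultures. The median over the list was 0.54 without β1-WT culture C, with 4 genes past both thresholds, and -0.93 without β1-K794Q culture B, with 3. Without both it was 0.22 with 7 past them, 4 higher (Phlda3, Ccnd1, Fosl1 and Hbegf) and 3 lower (Etv1, Junb and Ier3). In 6 of the 20, β1-K794Q culture B was at least 2-fold above both other β1-K794Q cultures, against 5.19% of all tested genes. The cyclin gene Ccnd1 met both rules, with 169, 160 and 1200 CPM in the β1-WT cultures and 267, 2080 and 423 CPM in the β1-K794Q cultures. Among the 6 that were not tested, the EGF receptor ligand gene Ereg had 14.0 CPM in β1-K794Q culture B and at most 0.192 CPM elsewhere.

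**Figure D5:**
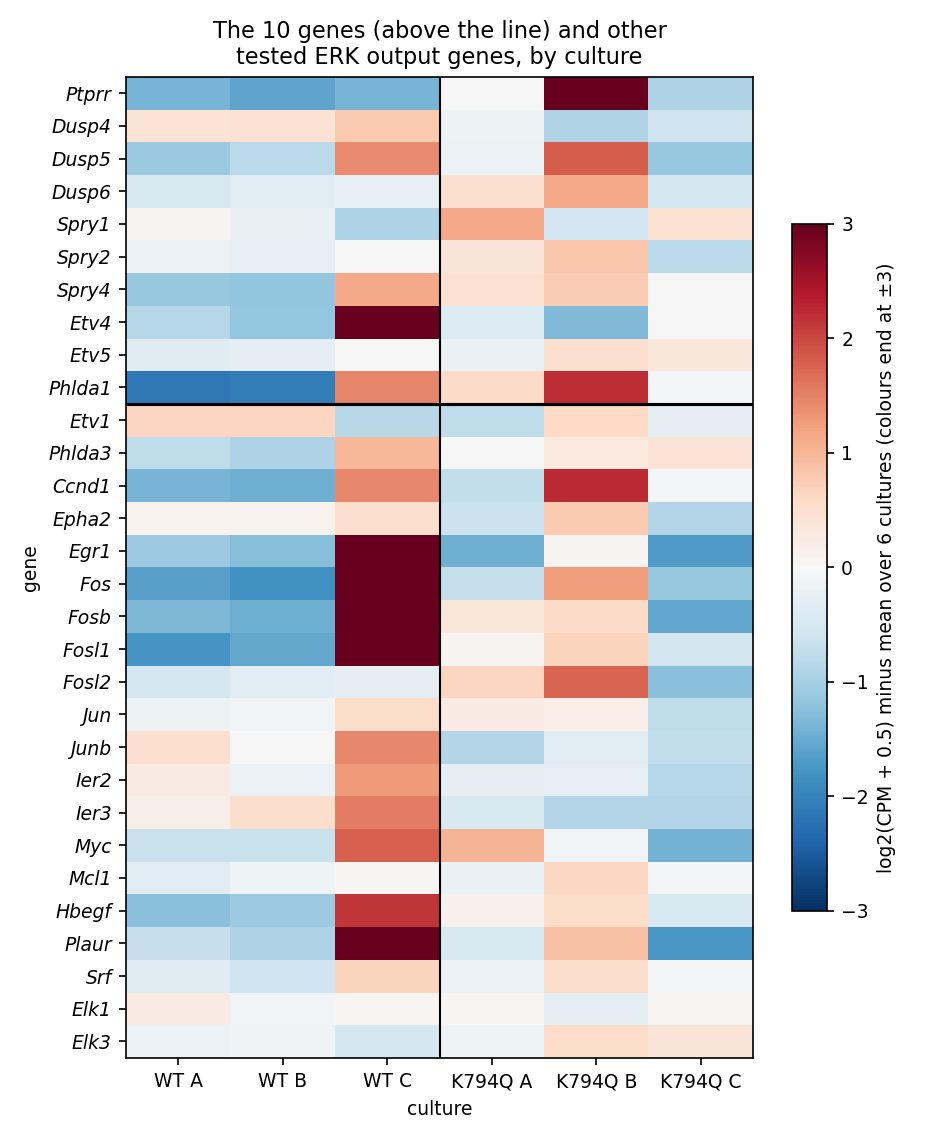
Log2(CPM + 0.5) minus its mean over the 6 cultures for the 10 genes (above the line) and the 20 other tested ERK output genes, with β1-WT cultures on the left and β1-K794Q cultures on the right; colors end at 3 on either side. Red cells in the column of β1-WT culture C are shared by Dusp5, Spry4, Etv4, Phlda1, Egr1 and Fos, while Dusp4 is the 1 of the 10 genes that is above its mean in all β1-WT cultures and below it in all β1-K794Q cultures.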

How the data were processed

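Total RNA was depleted of ribosomal RNA with Ribo-Zero and sequenced. The deposited values are raw counts, 1 whole number for each mouse symbol and culture; the submitters' notes name bcl2fastq 2.20.0, STAR 2.7.4a, HTSeq 0.9.1, mm10 and edgeR 3.38.4, and neither the annotation nor the strand setting is given in the sources used here. Ptprr, Dusp5, Spry1, Spry4 and Phlda1 overlap annotated genes on the other strand, from which their reads could then not be told apart; the gene opposite Ptprr, 4933416C03Rik, had 0 counts in all cultures. The study describes repeated sequencing of these samples, and which run the counts come from was not examined here.
The tests used edgeR 4.0.16 under R 4.3.3 (filterByExpr, TMM, glmQLFit and glmQLFTest, two-sided), with Benjamini-Hochberg adjustment over 11608 genes and a common dispersion of 0.186. The scripts were first tested on simulated counts with a lower dispersion than these data and no outlying cultures. That test therefore does not show how often the fits recover differences in these data. A gene passed both thresholds when it was 2-fold or more apart with p not above 0.05 before adjustment. A count of 0 allows up to 3 counts, or 0.209 to 0.3 CPM, for counting error only. Patterns were compared as log2(CPM + 0.5), centered over 6 cultures, and for each of the 10 genes 2 or 3 of the 3 most similar are named. Of each list, genes past both thresholds are named; further genes, and the rule on cultures 2-fold above the rest, were chosen after their values were seen. Hras and Adgre1 were not analysed here. Positions and exon lengths came from GENCODE M21 (GRCm38), where 21737 symbols matched directly and 1257 by synonym. Alternatives were no filter, at least 10 counts in every culture, RLE scaling, DESeq2 1.42.0, the likelihood ratio test, the culture letter as a block, a regional offset and leaving out cultures. Figures were drawn with matplotlib 3.10.9. The genes and lists were chosen with earlier results of these data known.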

Additional observations from a re-analysis of the deposited data

How the results depend on the processing

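Over the 10 genes, 117 of 137 log2 fold changes under the alternatives kept their direction and their side of the thresholds, 7 lost the call, 9 gained it and 4 reversed. The 4 were Dusp5 without β1-WT culture A (-0.02) and without β1-K794Q culture B (-1.11), and Etv4 without β1-WT culture C (0.79) and without both outlying cultures (1.17); with each culture left out in turn Dusp5 ran from -1.11 to 2.04 and Etv4 from -3.72 to 0.79. DESeq2 gave no p for Ptprr and Etv4, and Etv4 was not tested where 10 counts were asked of every culture. The number of the 10 genes past both thresholds was 2 with all cultures, 1 in DESeq2 and 3 in the likelihood ratio test. It was 4 without both outlying cultures and 1 to 3 with each culture left out. For the other phosphatases, 1 with all cultures, it was 3 with no filter, 2 in DESeq2, 3 without both and 0 to 3 with each left out; for the other inhibitors, 1 with all cultures, it was 0 with the regional offset and 0 to 1 with each left out. For the cascade, 0 with all cultures, it was 2 without both and 0 to 1 with each left out, and for the other outputs, 3 with all cultures, it was 5 with no filter, 2 with the regional offset, 7 without both and 2 to 4 with each left out. Over all genes it was 603 with all cultures, 916 with no filter and 425 where 10 counts were asked of every culture. It was 887 in DESeq2, 727 in the likelihood ratio test and 523 with the regional offset. Without both it was 1661, and with each left out 501 to 992. The fits with a changed filter, by DESeq2 and without cultures also covered other numbers of genes, so that their counts differ in more than 1 choice. These were 15974 with no filter, 10541 with 10 counts asked of every culture, 11721 without both and 11608 with all cultures. DESeq2 covered 15974 genes, among them Ptprr and Etv4 with no p. The causes were not separated. Ptprr and Dusp4 were again the 2 of the 10 genes whose cultures did not overlap under RLE scaling and with library totals.
The culture letters are not stated to pair the groups. Cultures of the same letter deviated from their group means with correlations of 0.109 (A), 0.055 (B) and 0.102 (C). Between different letters the correlation was 0.113 for β1-K794Q culture A with β1-WT culture B. All the others were negative, down to -0.162. Whether the letters pair the groups cannot be decided from these small values. With the letter as a replicate block, 571 genes passed both thresholds, with 1 of the 10 genes (Dusp4; Ptprr had 2.84), 0 of the other phosphatases, 1 of the other inhibitors, 0 of the cascade and 2 of the other outputs. Depth limits Etv4, Dusp5, Spry1 and Ptprr most, each with 29 counts or fewer in at least 1 culture of each group.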
